A study of Homo sapiens with 6 samples.

Results

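The BCL2 family of apoptosis regulators was followed in Cisplatin-treated HK-2 cells through 10 genes taken by name from the deposited count table, which lists 62754 genes. These were the anti-apoptotic genes BCL2L1 and MCL1, the effectors BAX and BAK1, and the BH3-only genes BBC3, PMAIP1, BCL2L11, BID, BAD and BIK. All 10 had at least 10 counts in 3 or more libraries, and all 10 were among the 19874 genes with enough counts to be tested. Both groups received Cisplatin, a platinum drug that damages DNA and injures the kidney tubule. They differed in the transfected siRNA, a negative control (CP+siNC) or one against NAT10 (CP+siNAT10). NAT10 acetylates both RNA and protein, and the study addressed its role in Cisplatin injury. There were 3 libraries per group and no group without Cisplatin, so a response to the drug itself cannot be read from these data. Dose and time are not in the labels, and the study's methods select 20 μM for 24 hours for its HK-2 experiments. HK-2 is a human proximal tubule epithelial line immortalised with the E6 and E7 genes of a papillomavirus. Because E6 promotes the degradation of p53, which induces several genes of this family, the line is a limited model of their control.

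The BCL2 family decides whether the outer membrane of the mitochondrion is opened during apoptosis. Anti-apoptotic members hold the effectors BAX and BAK1 in check, BH3-only members bind the anti-apoptotic proteins or engage the effectors directly, and active effectors form pores through which cytochrome c reaches the cytosol and starts the caspase cascade. In the kidney, tubular cells exposed to Cisplatin are known to die partly by this route. Much of the family's control acts on the proteins, through degradation, cleavage, phosphorylation and movement to mitochondria, and the values here are mRNA levels only.

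Total counts were 19321665, 21602988 and 19464027 in the CP+siNC libraries and 20793709, 21531774 and 25192736 in the CP+siNAT10 libraries. Levels are given as CPM, counts relative to the library size after scaling by the TMM method. The comparison used the quasi-likelihood test of edgeR, and a gene is called where its Benjamini-Hochberg adjusted p, taken over every tested gene, was under 0.05. Standard errors of log2 fold changes are written SE. A log2 fold change below 0 means a lower level in CP+siNAT10. An exact permutation test of 3 libraries against 3 has 0.10 as its smallest p, which is why the calls come from the fit to the whole table. The labels do not say whether the libraries of a group came from separate cultures, so these p-values measure the spread between the libraries, which may be partly technical.

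NAT10 (ENSG00000135372), the targeted gene, was measured at 75.8, 71.4 and 73.2 CPM in CP+siNC and at 41.3, 40.5 and 42.4 CPM in CP+siNAT10. Every library matched its label, and the level in CP+siNAT10 was 56.4% of that in CP+siNC. This gave a log2 fold change of -0.82 (SE 0.0426), with a Benjamini-Hochberg adjusted p = 2.79e-15 in the quasi-likelihood test of edgeR.

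The tissue label was compared with marker genes. Of 18 epithelial and tubular markers 12 had enough counts to be tested, with KRT8, an epithelial keratin, the most abundant at 1455 ± 21.1 CPM in CP+siNC and 1450 ± 18.7 CPM in CP+siNAT10 (SD, n = 3). KRT18, KRT19 and PAX8, a transcription factor of renal epithelium, were also present. Of the 12 tested markers 7 were called, 3 lower and 4 higher, among them KRT18 with a log2 fold change of -0.36 and PAX8 with 0.59. LRP2 and CUBN, the endocytic receptors of the proximal tubule, SLC34A1, its phosphate transporter, ANPEP, HNF4A and CDH1 had too few counts to be tested. Other markers of the proximal tubule passed the filter, GGT1 at 33.2 CPM in CP+siNC and 27.4 CPM in CP+siNAT10, the glucose transporter SLC5A2 at 9.30 and 11.5 CPM and the water channel AQP1 at 1.03 and 0.694 CPM. The libraries thus carried an epithelial profile with some markers of the proximal tubule and without several others. The 18 markers summed to between 2124 and 2186 CPM in CP+siNC and between 2087 and 2116 CPM in CP+siNAT10, sums in which KRT8 has the largest part.

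Of 16 markers of leukocytes, endothelium, podocytes, distal nephron and fibroblasts 4 had enough counts to be tested. Of these 2 were called, 0 lower and 2 higher, beside 44.1% of all tested genes. They were COL1A1 with a log2 fold change of 0.38 and the leukocyte gene PTPRC with 0.96. The PTPRC value rests on few counts, 8, 10 and 7 in CP+siNC and 10, 29 and 17 in CP+siNAT10. CD14, the other leukocyte marker tested, was not called, at -0.03. The 16 summed to 13.3, 14.9 and 12.5 CPM in CP+siNC and 16.0, 19.4 and 16.4 CPM in CP+siNAT10. The most abundant was the collagen gene COL1A1, at 10.5 ± 0.536 and 13.6 ± 1.53 CPM (SD, n = 3). The distal tubule transporter SLC12A3 had no counts, which allows at most 0.159 CPM in the library where this limit is highest. The sum was higher in CP+siNAT10, and its part in the results below was not tested. In bulk RNA, fewer cells that express a gene and less of its RNA per cell cannot be told apart.

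Across the family the change with NAT10 siRNA was downward for most members, of moderate size, and not shared by all. Of the 10 members 7 were called, beside 44.1% of all tested genes. Lower in CP+siNAT10 were MCL1, BAX, BAK1, BBC3, PMAIP1 and BAD, 6 of 10 members beside 22.3% of all tested genes. BCL2L11 was higher, 1 of 10 members beside 21.8% of all tested genes. BCL2L1, BID and BIK were not called. Of the 7 calls that of BBC3 had the largest adjusted p, 0.0405 in the edgeR quasi-likelihood test, and it was lost under 7 of 13 alternative settings. The median log2 fold change of the 10 members was -0.23, and that of all tested genes was 0.0070. The genes were chosen with results of these data known, so these counts describe the 10 members and test nothing about the family.

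The sizes were limited. The largest log2 fold change among the called members in size was that of BAK1, at -0.55, and none exceeded 1 in size, a limit that 2.33% of all tested genes passed together with the adjusted p. For 6 of the 10 members the groups did not overlap, 5 with CP+siNAT10 entirely lower and 1 with it entirely higher. Such separation was found for 51.4% of all tested genes, so it is common in this comparison.

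**Figure D1:**
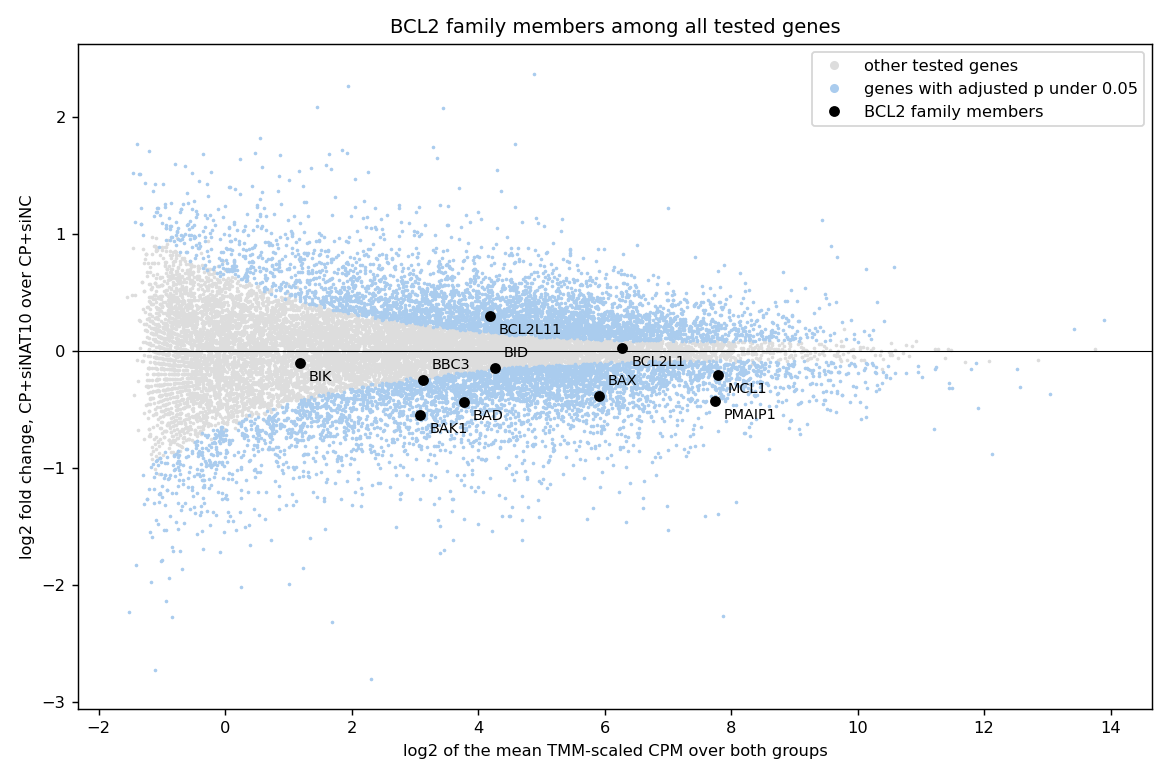
Each point is a tested gene, with the log2 of its mean TMM-scaled CPM over both groups on the horizontal axis and its log2 fold change on the vertical axis. The 10 members are in black. MCL1, BAX, BAK1, BBC3, PMAIP1 and BAD lie below 0 and BCL2L11 above it among the called genes (blue), all within 1 of 0, while BCL2L1, BID and BIK lie among the genes that were not called (grey).

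The plot of members among all tested genes shows how the call depends on abundance. The band of genes that were not called widens towards low levels. BIK, the least abundant member in CPM, had between 40 and 58 counts per library, and MCL1 had between 4389 and 5169. The 95% interval of the BIK log2 fold change ran from -0.44 to 0.24, so a fall of the size measured for MCL1 was not detectable for BIK at this depth.

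Of the anti-apoptotic pair, MCL1 fell and BCL2L1 was not called. MCL1 (ENSG00000143384, chr1:150560895-150579597, minus strand, GRCh38) encodes a short-lived protein that restrains the BAK1 protein and is bound by the products of PMAIP1 and BCL2L11. It was measured at 233, 235 and 244 CPM in CP+siNC and at 213, 203 and 204 CPM in CP+siNAT10. Every CP+siNAT10 value was lower than every control value, and their mean was 86.9% of the control mean. On the log2 scale the fold change was -0.20 (SE 0.0337), at a Benjamini-Hochberg adjusted p = 1.34e-05 in edgeR's quasi-likelihood test.

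BCL2L1 (ENSG00000171552, chr20:31664452-31723989, minus strand) encodes BCL-xL, which holds back both effectors. It was measured at 77.9, 78.6 and 73.7 CPM in CP+siNC and at 77.9, 79.6 and 77.6 CPM in CP+siNAT10, and the groups overlapped. The log2 fold change was 0.03 with a 95% interval from -0.05 to 0.11 (Benjamini-Hochberg adjusted p = 0.568 in edgeR's quasi-likelihood test), and under alternative settings it ran from -0.0012 to 0.07, so its sign is not fixed. The interval does not include a fall of the size measured for MCL1. On the opposite strand ABALON overlaps BCL2L1, with 7521 counts beside 9917 and a log2 fold change of 0.07, also not called, and the sources used here do not give whether strand was used in counting. Counts per gene do not separate BCL-xL from the shorter pro-apoptotic form made from the same gene by splicing, nor the forms of MCL1 or BCL2L11.

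Both effectors fell. BAX (ENSG00000087088, chr19:48954815-48961636, plus strand) encodes a cytosolic protein that moves to mitochondria when activated. Its levels were 65.1, 71.5 and 67.0 CPM in CP+siNC and 52.2, 52.2 and 52.0 CPM in CP+siNAT10. The CP+siNAT10 libraries were nearly equal to each other and all below the control libraries, at 76.8% of their mean. This gave a log2 fold change of -0.38 (SE 0.0428), with a Benjamini-Hochberg adjusted p = 1.99e-08 in the quasi-likelihood test of edgeR.

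BAK1 (ENSG00000030110, chr6:33572547-33580276, minus strand) encodes the effector that resides in the mitochondrial membrane. It was less abundant, at 9.93, 10.6 and 9.71 CPM in CP+siNC and 6.93, 6.08 and 7.65 CPM in CP+siNAT10. The groups did not overlap, and the mean in CP+siNAT10 was 68.2% of the control mean. Its log2 fold change of -0.55 had an SE of 0.0963 (Benjamini-Hochberg adjusted p = 2.90e-05 in edgeR's quasi-likelihood test). The pseudogenes BAK1P1 and BAK1P2 held 12 counts and 1 count over the 6 libraries, beside 1075 for BAK1. On the opposite strand GGNBP1 overlaps BAK1, with 126 counts and a log2 fold change of -0.56 that was not called. Whether strand was used in counting is not known here either.

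The promoter of BAX is shown because it holds 4 copies of the E-box CACGTG, the most of any family promoter searched. The letters of CACGTG read the same on both strands. The stretch below is the 160 bases before the BAX start in the RefSeq promoter table (GRCh38.p14, chr19:48954715-48954874, plus strand), with each CACGTG in capitals.
BAX: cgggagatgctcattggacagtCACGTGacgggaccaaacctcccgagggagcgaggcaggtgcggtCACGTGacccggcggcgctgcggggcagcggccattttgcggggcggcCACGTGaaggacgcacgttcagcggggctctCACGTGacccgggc
The deposited table places the start of BAX within this stretch, and positions here count from the RefSeq start. The copies begin 138, 93, 45 and 14 bases before it. At least 1 CACGTG was found in 7.26% of the 35116 promoter windows of 300 bases in the table, and at least 4 in 5 windows, or 0.0142%. BBC3 and BID had 1 copy per window that held it, and among other family genes BNIP3 had 1. BAK1 held no CACGTG in this window but 1 match to the p53 decamer, 73 bases before its start, a motif present in 6.63% of windows. A match describes the letters only, and these motifs and stretches were chosen after the fold changes were seen.

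The BH3-only genes moved in both directions. PMAIP1, BAD and BBC3 were called lower, BCL2L11 was called higher, and BID and BIK were not called. PMAIP1 (ENSG00000141682, chr18:59899996-59903537, plus strand) encodes NOXA, which binds MCL1 and favours its degradation. With levels of 254, 237 and 247 CPM in CP+siNC and 187, 174 and 188 CPM in CP+siNAT10, it was the member with the most counts in CP+siNC. All CP+siNAT10 libraries were lower, at 74.5% of the control mean. On the log2 scale the fold change was -0.42 (SE 0.0360), at a Benjamini-Hochberg adjusted p = 9.70e-11 in edgeR's quasi-likelihood test.

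The PMAIP1 promoter is given for its match to TGACGT, the core of sites bound by ATF and CREB factors, since ATF4 is among the regulators described further on. The 100 bases before the start (RefSeq, GRCh38.p14, chr18:59899896-59899995, plus strand) follow, with the match, which lies on the opposite strand and so reads ACGTCA, in capitals.
PMAIP1: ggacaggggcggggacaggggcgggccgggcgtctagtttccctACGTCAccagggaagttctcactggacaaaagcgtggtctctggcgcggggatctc
The match starts 56 bases before the PMAIP1 start. TGACGT was found on either strand in 7.98% of promoter windows. The windows of BAD also held it, 54 or 93 bases before the start depending on the window.

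BAD (ENSG00000002330, chr11:64269830-64284653, minus strand) encodes a sensor that binds BCL-xL unless survival kinases phosphorylate it. It was measured at 16.41, 15.60 and 15.01 CPM in CP+siNC and at 11.26, 12.35 and 11.16 CPM in CP+siNAT10. The groups did not overlap. This gave a log2 fold change of -0.44 (SE 0.0742), with a Benjamini-Hochberg adjusted p = 1.78e-05 in the quasi-likelihood test of edgeR. GPR137, which overlaps BAD on the opposite strand, also fell, with a log2 fold change of -0.34. If strand was not used in counting, reads of the pair cannot be told apart.

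BCL2L11 (ENSG00000153094, chr2:111119378-111164352, plus strand) encodes BIM, which binds all anti-apoptotic members and can engage the effectors. It was measured at 14.98, 15.23 and 18.48 CPM in CP+siNC and at 21.28, 18.85 and 19.96 CPM in CP+siNAT10. All CP+siNAT10 libraries lay above all control libraries, although the lowest of them was close to CP+siNC replicate 3. On the log2 scale the fold change was 0.30 (SE 0.0737), at a Benjamini-Hochberg adjusted p = 0.00120 in edgeR's quasi-likelihood test. Here too a gene on the opposite strand overlaps. MIR4435-2HG held 2627 counts beside 2330 for BCL2L11 and rose, with a log2 fold change of 0.35, and the same limit on strand applies.

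The BCL2L11 promoter holds GTAAACA, a core recognised by forkhead factors, and FOXO factors are known inducers of this gene. The 100 bases at the far end of the window, from 250 to 151 before the start (RefSeq, GRCh38.p14, chr2:111120664-111120763, plus strand), are shown with the match in capitals.
BCL2L11: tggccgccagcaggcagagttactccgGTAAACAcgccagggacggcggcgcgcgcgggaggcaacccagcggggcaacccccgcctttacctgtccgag
The match starts 223 bases before this RefSeq start. The deposited table starts BCL2L11 further upstream, so the whole stretch lies inside the gene as deposited, and so do the BID windows named above. GTAAACA was found on either strand in 3.42% of promoter windows, and in those of no other member. The promoter table had no entry for MCL1, BIK, BCL2L2, BCL2L10 and BNIP3L.

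BBC3 (ENSG00000105327, chr19:47220822-47232766, minus strand) encodes PUMA, a target of p53 that binds all anti-apoptotic members. It was measured at 10.6, 9.11 and 8.67 CPM in CP+siNC and at 7.36, 8.83 and 7.69 CPM in CP+siNAT10, and the groups overlapped. This gave a log2 fold change of -0.25 (SE 0.0979), with a Benjamini-Hochberg adjusted p = 0.0405 in the quasi-likelihood test of edgeR. This call was lost under 7 of 13 alternative settings, where the adjusted p over all 13 ran from 0.0186 to 0.244 by the quasi-likelihood test of edgeR or by DESeq2. Leaving out CP+siNC replicate 1, CP+siNAT10 replicate 1 or CP+siNAT10 replicate 3 gave log2 fold changes of -0.16, -0.20 and -0.22, each without a call.

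BID (ENSG00000015475, chr22:17734138-17774770, minus strand), whose protein is cleaved by caspase-8 and links death receptors to mitochondria, ranged from 18.4 to 21.3 CPM in CP+siNC and from 17.2 to 19.2 CPM in CP+siNAT10. Its log2 fold change was -0.14 with a 95% interval from -0.28 to -0.0037 (Benjamini-Hochberg adjusted p = 0.0901 in edgeR's quasi-likelihood test). Without CP+siNC replicate 1, the lowest control library for this gene, it was called at -0.20 (adjusted p = 0.0277 by the same edgeR test), with adjusted p up to 0.352 under the other settings. BIK (ENSG00000100290, chr22:43110750-43129712, plus strand), a BH3-only protein of the endoplasmic reticulum, ranged from 2.12 to 2.48 CPM and from 2.14 to 2.29 CPM, with a log2 fold change of -0.10 (adjusted p = 0.673 by edgeR's quasi-likelihood test). The groups overlapped for both genes.

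**Figure D2:**
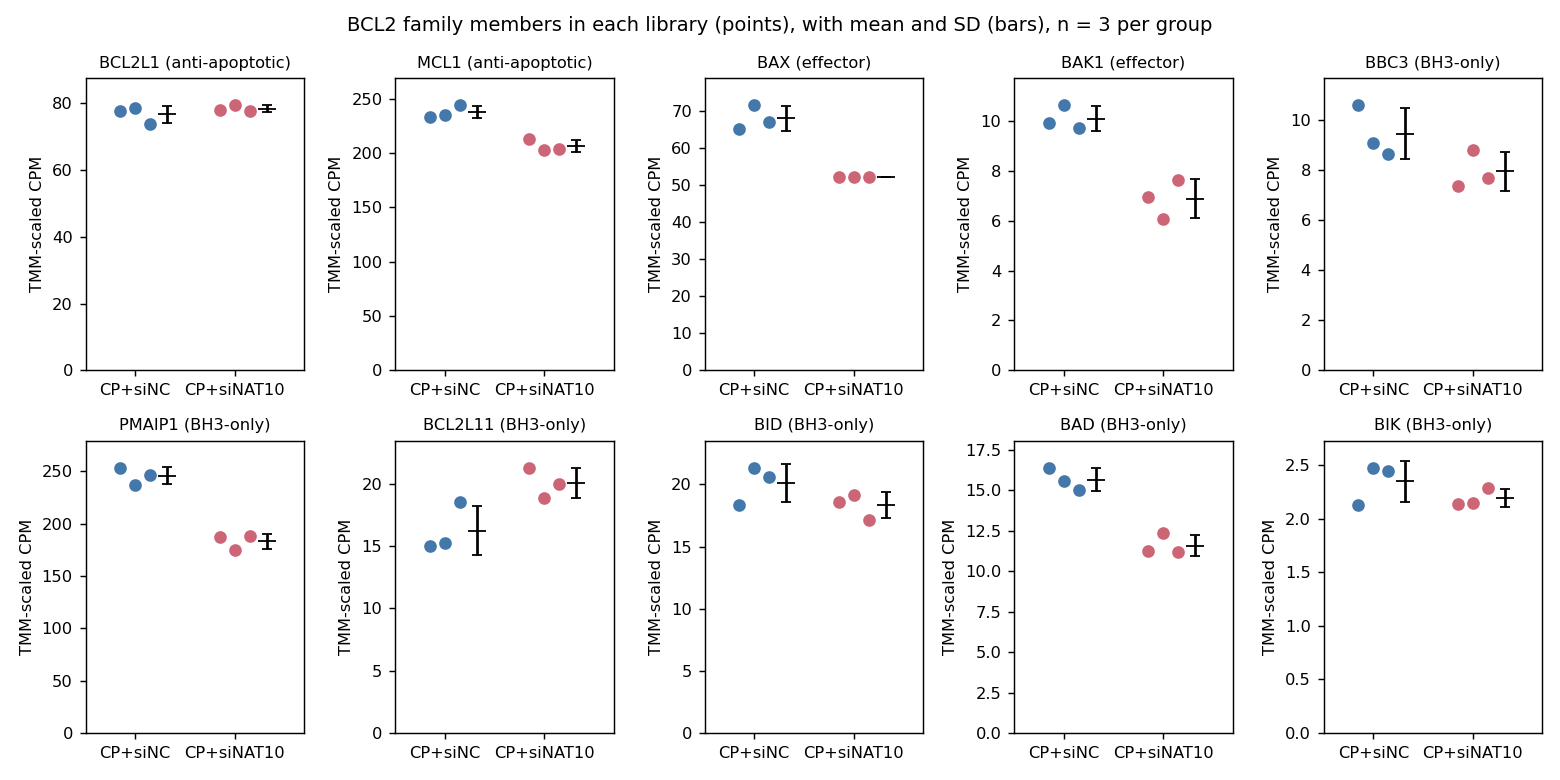
TMM-scaled CPM of each member in each library (points, blue for CP+siNC and red for CP+siNAT10), with the group mean and SD (black bars, n = 3). Each vertical axis starts at 0. BAX, BAK1, PMAIP1, BAD and MCL1 are separated downward and BCL2L11 upward, while BCL2L1, BBC3, BID and BIK overlap.

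The plot of member levels by library shows that the spread within a group was small against the separation for BAX, PMAIP1 and MCL1. It was wider for BBC3 and BCL2L11. No library was the highest or lowest of its group for all members.

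Per kilobase of gene length, as given in the deposited table, the members spanned a wide range of levels. In CP+siNC the order was PMAIP1 at 112 RPKM (TMM-scaled CPM per kilobase), MCL1 at 38.2, BAX at 26.2, BCL2L1 at 18.3 and BAD at 9.18. These 5 were separated from each other in all 3 control libraries. BAK1 at 4.56 and BID at 4.55 RPKM overlapped. BBC3 at 2.97 RPKM lay above BIK at 2.47 in these libraries without overlap, and BCL2L11 at 2.41 RPKM overlapped with both. In CP+siNAT10 BCL2L11, at 2.97 RPKM, stood above BBC3, and above BIK at 2.30 RPKM, in every library. There BAX was at 20.2 RPKM and BCL2L1 at 18.7, an order that depends on the gene lengths used.

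Among the 10 members the share of the anti-apoptotic genes was larger in CP+siNAT10, although neither MCL1 nor BCL2L1 was called higher. Other family genes, such as the anti-apoptotic BCL2 and BCL2L2, are not part of these shares. As a share of the summed per-length levels of the 10 members, MCL1 and BCL2L1 together made up 25.1, 25.8 and 25.6% in CP+siNC and 29.3, 29.7 and 28.6% in CP+siNAT10. The share of the 6 BH3-only members went from 60.6 ± 1.12% to 57.7 ± 0.533% and that of the effectors from 13.9 ± 0.792% to 13.1 ± 0.142% (SD, n = 3). Groups did not overlap for any of the 3 shares, although the effector shares came close, with 13.3% in the lowest control library and 13.2% in the highest CP+siNAT10 library. Shares sum to 100%, so a fall of the abundant PMAIP1, from 50.8 to 47.2%, raises the others. No test was made of the shares, and their size depends on the gene lengths used.

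**Figure D3:**
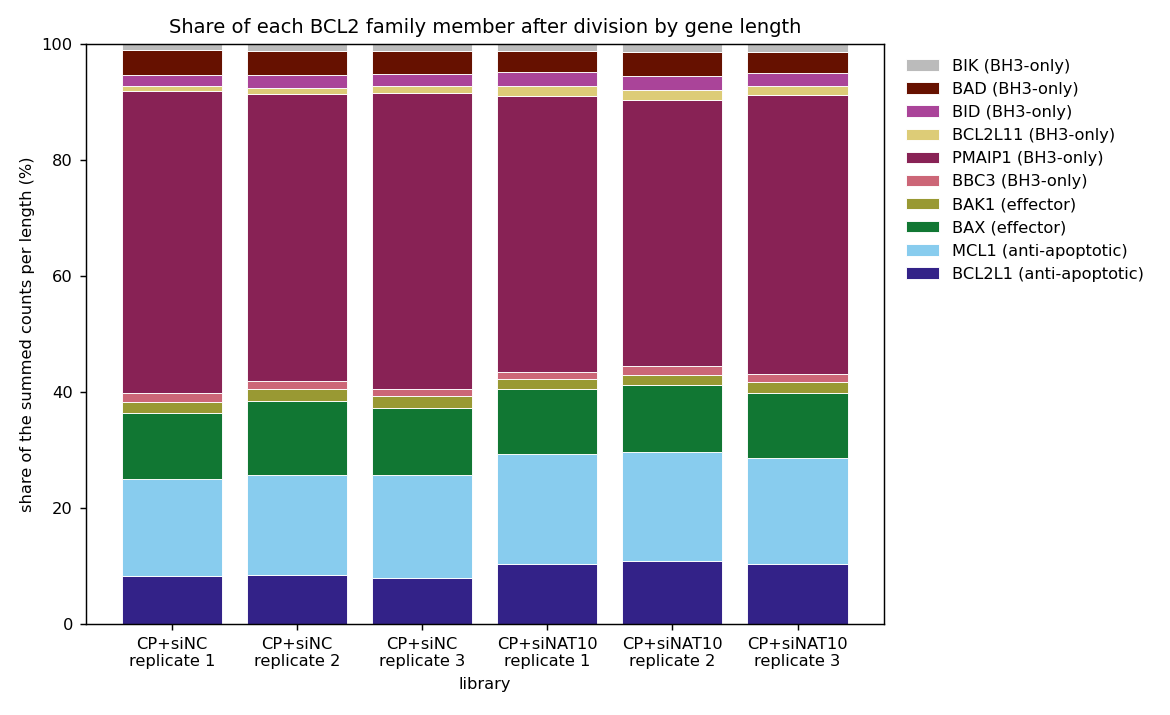
Share of each member in the summed counts per length of the 10 members, as a percentage, in each of the 6 libraries. PMAIP1 is the largest share in every library, at a mean of 50.8% in CP+siNC and 47.2% in CP+siNAT10, and the summed share of BCL2L1 and MCL1 is larger in every CP+siNAT10 library.

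The plot of shares shows that MCL1 gained share, from 17.2 to 18.7%, although its own level fell, since the summed level of the 10 members fell by more. BCL2L1 went from 8.26 to 10.5% with a level that was not called, and BCL2L11 from 1.09 to 1.67%. BAX, BBC3, BID and BAD had shares that overlapped between groups.

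Ratios between members of one library do not depend on library scaling, and 4 pairs were compared per length after their values were seen. The level of BAX relative to BCL2L1 was 1.36, 1.48 and 1.47 in CP+siNC and 1.09, 1.06 and 1.09 in CP+siNAT10. The ratio fell with every length used, but its side of 1 was not fixed. With exon lengths from GENCODE 29 it was 1.13 ± 0.0546 in CP+siNC and 0.852 ± 0.0107 in CP+siNAT10 (SD, n = 3), and for counts not divided by length it was below 1 in all 6 libraries. The ratio of BAK1 to MCL1 went from 0.120 ± 0.00772 to 0.0939 ± 0.0107, and that of PMAIP1 to MCL1 from 2.95 ± 0.129 to 2.52 ± 0.0883 (SD, n = 3). The ratio of BCL2L11 to MCL1 moved the other way, from 0.0630 ± 0.00599 to 0.0895 ± 0.00334 (SD, n = 3). The groups did not overlap for any of the 4 ratios, and each moved in the same direction with the other lengths and for counts not divided by length. Their size depends on this choice, and for such counts PMAIP1 to MCL1 went from 1.04 ± 0.0452 to 0.887 ± 0.0310 and BAK1 to MCL1 from 0.0426 ± 0.00274 to 0.0334 ± 0.00382 (SD, n = 3). Together the 10 members took 0.0684, 0.0691 and 0.0699% of all counts in CP+siNC and 0.0605, 0.0585 and 0.0591% in CP+siNAT10.

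Of 13 further genes of the family 9 had enough counts to be tested, and 4 were called, 3 lower and 1 higher, or 44.4% beside 44.1% of all tested genes. Under the alternative settings between 3 and 6 were called. BCL2L15 fell most in size, from 5.90 ± 0.645 to 3.56 ± 0.183 CPM (SD, n = 3), a log2 fold change of -0.73 (SE 0.123, Benjamini-Hochberg adjusted p = 1.54e-05 in edgeR's quasi-likelihood test). AP4B1-AS1 overlaps it on the opposite strand, with 1162 counts beside 593 and a log2 fold change of 0.18 that was not called, and the limit on strand holds here as well. BNIP3, a hypoxia-inducible mitophagy receptor, fell by 0.36 on the log2 scale, from 97.9 ± 1.33 to 76.3 ± 3.54 CPM (SD, n = 3). It has many processed pseudogenes that could share its reads, of which BNIP3P1 held the most counts, 57 beside 11039 for BNIP3. BCL2L12 fell by 0.25, and IRF3, which overlaps it on the opposite strand, fell by 0.29. BCL2L13, a mitochondrial protein with roles in mitophagy, rose by 0.15, from 39.5 ± 0.662 to 43.9 ± 1.20 CPM (SD, n = 3). This call was lost with DESeq2 (adjusted p = 0.0521), and the other settings gave adjusted p-values down to 0.00129 by the quasi-likelihood test of edgeR.

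BCL2 itself was scarce and not called. It ranged from 4.35 to 4.98 CPM in CP+siNC and from 3.61 to 4.06 CPM in CP+siNAT10, without overlap, and its log2 fold change of -0.26 had a 95% interval from -0.52 to -0.0010 (Benjamini-Hochberg adjusted p = 0.0978 in edgeR's quasi-likelihood test). BNIP3L, related to BNIP3, had a log2 fold change of -0.09 and was not called. The anti-apoptotic BCL2L2 at 0.00068, the effector relative BOK at 0.05 and the BH3-only gene BMF at 0.02 had log2 fold changes near 0, and these 3 changed sign between settings. BCL2L2 shares its locus and strand with the read-through gene BCL2L2-PABPN1, which held 17975 counts beside 5770, so its level is uncertain.

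Among the 4 family genes below the filter, HRK, which encodes a BH3-only protein best known from neurons, is named because its counts differed, and was chosen after its values were seen. HRK had 1 count in each CP+siNC library and 10, 12 and 11 counts in the CP+siNAT10 libraries. The summed counts of 3 and 33 gave a ratio of 9.59 after scaling, with a 95% interval from 3.01 to 48.9 that covers counting error only. Because the gene was picked for this difference, no test is given for it. The level stayed very low, at 0.486 CPM in CP+siNAT10. BCL2A1, an anti-apoptotic target of NF-κB, had 31 counts in CP+siNC and 12 in CP+siNAT10, a ratio of 0.337 with an interval from 0.158 to 0.676. BCL2L14 had 3 and 9 counts and BCL2L10 had 2 and 0.

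**Figure D4:**
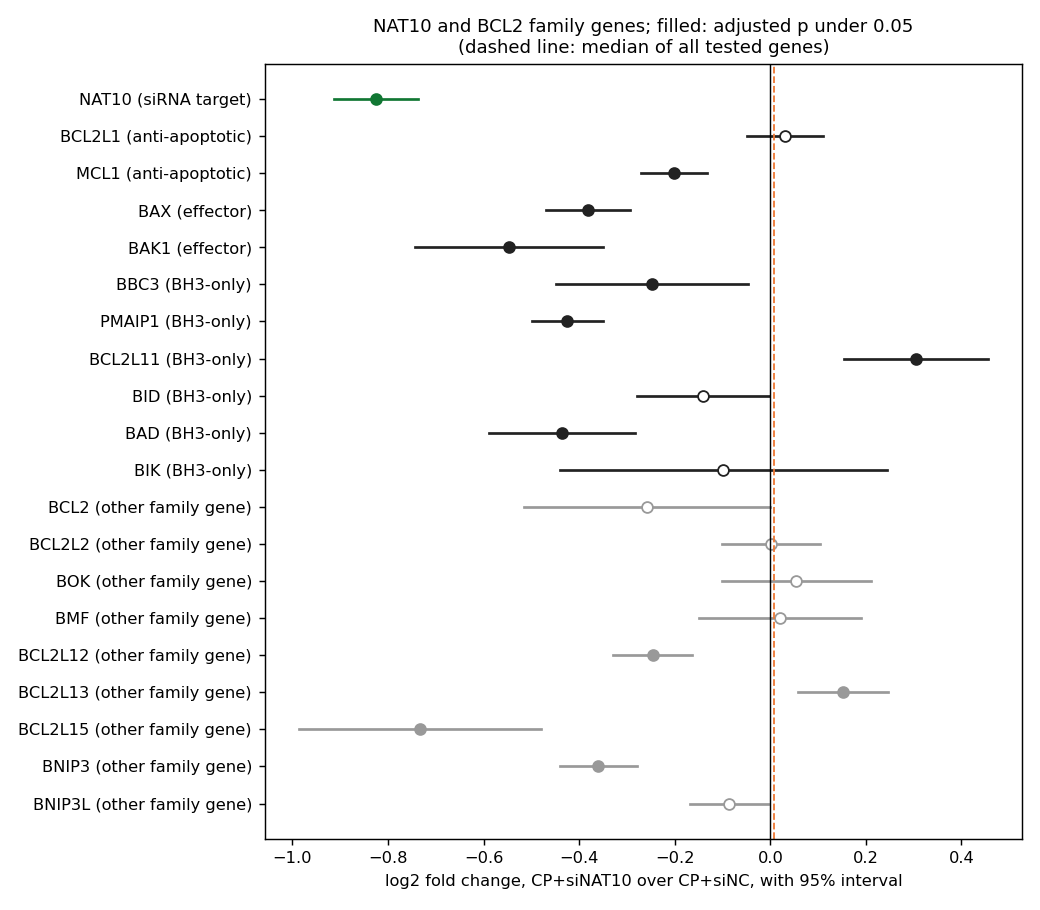
Log2 fold change of CP+siNAT10 over CP+siNC with its 95% interval for NAT10 (green), the 10 members (black) and the 9 other tested genes of the family (grey). Filled points have an adjusted p under 0.05, and the dashed line is the median of all tested genes at 0.0070. No tested family gene reaches the NAT10 value of -0.82.

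The plot of family fold changes sets these genes side by side. BCL2L11 and BCL2L13 are the filled points to the right of 0. The widest intervals are those of BIK, BCL2 and BCL2L15, all genes with few counts.

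A feature shared by some members lies in their 3′ UTRs. In earlier results of these data, genes whose 3′ UTR holds GACTATC, the shifted heptamer ACTATCA, or CATATTC tended to be lower in CP+siNAT10, so the members were searched for these heptamers in the longest 3′ UTR of each gene in GENCODE 29. The sites found are shown with the heptamer in capitals. They lie on GRCh38 at chr6:33572850-33572872 (minus strand) for BAK1, chr22:17735065-17735087 (minus strand) for BID and chr2:111165922-111165944 (plus strand) for BCL2L11.
BAK1: gggagaagGACTATCaacaccac
BID: aaaataggGACTATCtatcttaa
BCL2L11: atatattgCATATTCactttttc
The BAK1 site also holds ACTATCA, shifted by 1 base, so that both heptamers overlap there, at bases 1133 to 1140 of a 3′ UTR of 1450. The BCL2L11 site lies beyond the end that the deposited table gives for the gene. The other 7 members held none of the 3 heptamers, so 3 of 10 members held one, as did 17.3% of the 13085 tested genes with a 3′ UTR.

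The members with a site did not move alike. BAK1 fell, BID was not called and BCL2L11 rose. Across all genes, the median log2 fold change was -0.08 for the 2264 genes with any of the heptamers and 0.03 for the 10821 genes with none. It was -0.20 for the 236 genes that hold both GACTATC and ACTATCA, as BAK1 does. The heptamers were taken from earlier results of these same libraries, so these medians are not independent of that choice. The part of these heptamers in the BAK1 value was not tested. MCL1, BAX, PMAIP1, BAD and BBC3 were called lower and held none.

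The genes whose pattern over the 6 libraries was closest to that of BAK1, by the root mean square distance of centred log2 CPM over the 12303 genes averaging 5 CPM or more, were TMEM19, ENSG00000186076 and TMED7-TICAM2, at distances of 0.0391, 0.0478 and 0.0528. Their log2 fold changes were -0.51, -0.54 and -0.56. TMED7-TICAM2 is a read-through gene that shares sequence with its neighbours, so its level is uncertain.

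Around the family, 60 genes of 5 lists were examined, of which 57 had enough counts to be tested. Of these 35 were called, 18 lower and 17 higher, or 61.4% beside 44.1% of all tested genes, and the median log2 fold change of the 57 was -0.03. The calls of the pooled lists thus went in both directions. The 11 of these genes with a heptamer site were 4 lower, 3 higher and 4 not called.

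Downstream of the pores, 6 of 10 genes of mitochondrial release and the apoptosome were called, 3 lower and 3 higher, with a median log2 fold change of -0.08. The 3 smallest p-values belonged to the channel gene VDAC2, which restrains BAK1 and fell by 0.15 on the log2 scale, CYCS, which encodes cytochrome c and fell by 0.14, and APAF1, the scaffold of the apoptosome, which rose by 0.18. CYCS went from 351 ± 14.6 to 319 ± 12.5 CPM (SD, n = 3).

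Among the caspases CASP8, the initiator downstream of death receptors that cleaves BID, was called and rose by 0.24. The mitochondrial initiator CASP9 was not called.

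Among the 5 lists, the inhibitors of apoptosis had the largest called share, with 6 of 7 called, 4 lower and 2 higher, and a median of -0.28. BIRC3, which encodes cIAP2, a ubiquitin ligase induced by NF-κB, fell from 33.4 ± 0.963 to 13.2 ± 1.07 CPM (SD, n = 3). Its log2 fold change of -1.33 (SE 0.0618, Benjamini-Hochberg adjusted p = 3.10e-16 in edgeR's quasi-likelihood test) was the only one in the 5 lists beyond 1 in size. Its neighbour and relative BIRC2, cIAP1, fell by 0.64, and BIRC5, which encodes survivin and also acts in mitosis, by 0.28.

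Among 12 tested transcription regulators of the family 7 were called, 4 lower and 3 higher, with a median of 0.06. ATF4, a stress factor that induces several BH3-only genes, fell from 253 ± 7.71 to 198 ± 1.30 CPM (SD, n = 3), a log2 fold change of -0.36. DDIT3, which encodes CHOP, rose by 0.31, and MDM2, the ubiquitin ligase of p53 and itself a p53 target, fell by 0.19. Among the listed forkhead factors FOXO4 was called and fell by 0.22, opposite in direction to BCL2L11. FOXO3 was not called, at 0.09 with a 95% interval from -0.04 to 0.21. The part of these factors in the BCL2L11 value was not tested. TP63, TP73 and FOXO1 had too few counts to be tested.

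Genes acting on the proteins of the family, by ubiquitination, phosphorylation or binding, were called in 14 of 21 cases, 7 lower and 7 higher, with a median of -0.04. DYNLL1, a dynein light chain that binds BIM, fell from 1279 ± 36.4 to 858 ± 53.2 CPM (SD, n = 3), a log2 fold change of -0.58 (SE 0.0384, Benjamini-Hochberg adjusted p = 6.50e-13 in edgeR's quasi-likelihood test). FBXW7, which marks MCL1 for degradation, rose by 0.43, and USP9X, which removes ubiquitin from MCL1, rose by 0.23. Regulators with opposed effects on the MCL1 protein were therefore both higher, and the protein itself was not measured in these libraries.

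**Figure D5:**
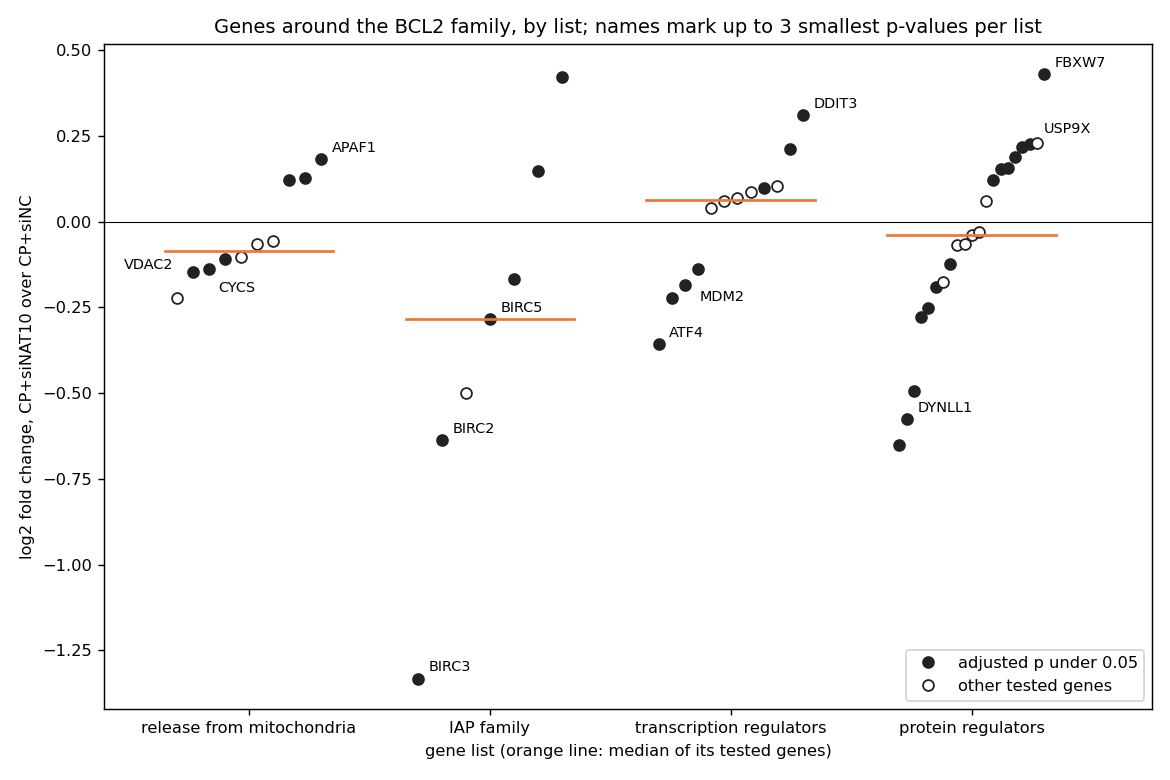
Log2 fold change of CP+siNAT10 over CP+siNC for the tested genes of 4 of the 5 lists, without the caspases, sorted by value within each list. Filled points have an adjusted p under 0.05, orange lines are list medians, and names mark the up to 3 genes with the smallest p among the filled points. BIRC3 at -1.33 is the lowest value.

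The plot of the pathway lists shows filled points on both sides of 0 in each of its 4 lists. The 13 alternative settings were applied to the counts of called genes in all 5 lists together, and not to each list.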

How the data were processed

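For each siRNA, negative control or NAT10, the authors sequenced 3 libraries of HK-2 cells under Cisplatin, made with a stranded mRNA kit whose identifiers, of 8 random bases, serve to account for duplicate reads. Per the submitters' processing notes, Trimmomatic 0.36, STAR 2.5.3a, featureCounts from Subread 1.5.1, edgeR 3.12.1 and the build GRCh38 were used. The deposited values are raw counts per gene, beside gene positions and lengths. The annotation release, the strand setting and whether the deposited counts were merged by identifier are not given in the sources used here. Unmerged copies would be counted as separate reads.

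Groups were taken from the labels, and no sample was left out. Low genes were removed by filterByExpr (10 as minimum count, 15 as minimum total), and the counts were scaled by TMM and compared in R 4.3.3 with edgeR 4.0.16 by the quasi-likelihood test, without a term for the replicate number. Benjamini-Hochberg adjustment covered all 19874 tested genes. No pair of replicates was alike within counting noise. In a self-test on simulated counts the procedure called most genes changed by 1 or 0.5 on the log2 scale and few unchanged genes. Levels per length used the deposited gene length. Motifs were searched on both strands of RefSeq promoter windows (250 bases before to 50 after a start, GRCh38.p14), and heptamers in GENCODE 29 with Python 3.11.15 and pandas 2.3.3. Plots were drawn with matplotlib 3.10.9.

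The members and gene lists were chosen with earlier results of these data known. Named were NAT10, the members, every tested further gene of the family, from each of 5 pathway lists the 3 smallest p-values among called genes, and the 3 genes most like the called member with the largest fold change. Genes of overlapping loci, marker genes, untested genes and further genes of the lists were named outside this rule. Some results for listed genes that fall under it are not reported here. Alternatives were RLE, upper quartile and library size scaling, no filter and a minimum count of 50, DESeq2 1.42.0, a block for the replicate number, each library left out in turn, and, for shares, counts not divided by length. Exon lengths from GENCODE 29, and both length alternatives for ratios between members, were added after the data were seen.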

Additional observations from a re-analysis of the deposited data

How the results depend on the processing

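Under all 13 alternatives MCL1, BAX, BAK1, PMAIP1 and BAD kept a lower call and BCL2L11 a higher call, and between 6 and 7 members were called. BBC3 lost its call with library size scaling (log2 fold change -0.21), without the filter on low counts (-0.24), with DESeq2 (-0.25), under the replicate block (-0.24) and without CP+siNC replicate 1, CP+siNAT10 replicate 1 or CP+siNAT10 replicate 3. The cause was not tested. BIK was not tested at a minimum count of 50, where 9 members were. The number of called genes was 8771, and lay between 6652 with DESeq2 and 8836 with library size scaling, where 3786 were lower and 5050 higher instead of 4440 and 4331. That scaling moved the median of all genes to 0.04. The labels number replicates alike in both groups and do not say whether libraries with the same number were paired. Such libraries did not deviate together (r = 0.0081, 0.0639 and -0.205 over 12304 genes). Between libraries of different number r ran from -0.217 to 0.198. With so few libraries these values cannot settle whether there was pairing, so the replicate block serves only as an alternative setting. Under it 8526 genes and 6 members were called. The shares of the anti-apoptotic, BH3-only and effector members in CP+siNC were 44.8, 44.1 and 11.1% for counts not divided by length, and 32.3, 54.9 and 12.8% with exon lengths from GENCODE 29. With either, the anti-apoptotic share was higher and both others lower in CP+siNAT10, without overlap. The ratio of BAX to BCL2L1 was lower in CP+siNAT10 with either too, but fell from above to below 1 with GENCODE 29 lengths. Depth limits BIK, BCL2 and the 4 untested family genes most.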
